A study of Mus musculus with 36 samples.

Results

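Chaperones bind unfolded proteins and help them reach or keep their folded state. In the endoplasmic reticulum (ER), the Hsp70 protein BiP, lectin chaperones and disulphide isomerases fold proteins made for the cell surface and for secretion, and terminally misfolded proteins are pulled back into the cytosol and degraded (ER-associated degradation, ERAD). When unfolded protein builds up in the ER, the sensors Ire1, Perk and Atf6 start the unfolded protein response (UPR), in which the transcription factors Xbp1 and Atf6 raise many ER chaperone genes. In the cytosol and mitochondria, the heat shock response driven by Hsf1 does the same for the cytosolic Hsp70, Hsp90 and J-domain proteins. Neurons make large amounts of membrane and secreted protein, which are folded in the ER.

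The 34 genes described here are a fixed list, 19 called ER stress genes and 15 called heat shock genes, and all 34 were found among the 26709 genes of the RNA table and passed the filter on low values (16209 genes tested). The cells were cortical neurons of CD-1 mouse embryos (E15, the tissue of all embryos pooled), kept for 7 days in vitro. All groups were silenced with AP-5 at 100 µM, which blocks NMDA-type glutamate receptors, together with TTX at 1 µM, which blocks voltage-gated sodium channels. Stimulated neurons had this for 2 h and then received 10 ng/ml BDNF, a neurotrophin acting through TrkB, or 55 mM KCl, which depolarises the membrane, for 1, 6 or 10 h. Controls stayed in AP-5 and TTX for 3, 8 or 12 h in all and are called controls of 1, 6 and 10 h. RNA-seq and ATAC-seq (transposase insertions in open chromatin) each had 2 samples in each of 9 groups, and the 6 controls were used as 1 group. The cultures were not sorted, so a value is a mean over all cells present, and fewer cells of a type and less RNA per cell cannot be told apart.

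RNA libraries held 8.51 to 36.7 M reads and ATAC libraries 1.24 to 6.24 M reads in peaks. The 8 neuron markers were present in every library (Tubb3 at 9795 to 17370 normalised reads). Glial and progenitor markers were present too: the summed level of 6 astrocyte markers was 10033 to 12928 in controls, 9761 to 12551 with BDNF and 7736 to 13958 with KCl, and that of 6 markers of dividing cells was 6828 to 9550, 6160 to 8089 and 5554 to 9097. For 6 oligodendrocyte lineage markers it was 5838 to 6334, 5534 to 6615 and 4304 to 7303. These ranges pool the times. All astrocyte markers but S100b, which was not tested, were called lower at KCl 6 h (log2 fold changes from -1.22 for Gfap to -0.41 for Slc1a3) and KCl 10 h. At KCl 1 h none was called lower. With BDNF, Gfap and Aqp4 were called lower at 6 h and 10 h, and Aldh1l1 and Slc1a3 at 6 h. The part of these cells in the results below was not tested. Of the stimulus genes checked, Fos, Arc and Bdnf were called higher than controls in each of the 6 stimulated groups. Npas4 was called higher at each KCl time and at BDNF 1 h. At BDNF 6 h and 10 h it was not called (log2 fold changes -0.40 and -0.45). The KCl 6 h RNA libraries A and B differed from each other most (chi-square per degree of freedom 39.6 against 2.44 to 10.4 in the other groups).

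Values below are normalised read counts (reads per gene divided by a size factor per library). A call means a Benjamini-Hochberg adjusted p below 0.1 over all 16209 genes in limma, a linear model on log2(value + 1), with 2 stimulated samples against 6 controls unless stated. Errors of fold changes are standard errors (SE) on that log2 scale. All comparisons against controls share the same 6 controls. Controls of 6 h and 10 h were also compared with controls of 1 h: 0 genes were called by limma, edgeR or DESeq2, with 164 and 181 genes at an unadjusted p below 0.05 in limma, 233 and 197 in edgeR and 56 and 39 in DESeq2, and 0 of the 34 members were among them with any of these tools.

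In controls the heat shock genes included both the highest and the lowest levels per length, and the lowest ER stress gene was Edem1 at 84.3 ± 2.58 normalised reads per kilobase. Per kilobase of annotated exon, the highest member was Hsp90ab1, the constitutive cytosolic Hsp90, at 6570 ± 240 (SD, n = 6) normalised reads per kilobase. Next came Calr, the ER lectin chaperone calreticulin, at 2277 ± 116, Hspa8, the constitutive Hsp70, at 2275 ± 44.1, and Hsp90aa1, the other cytosolic Hsp90, at 2098 ± 53.9. Calr and Hspa8 did not differ beyond their spread. Canx (calnexin, the membrane-bound relative of calreticulin) at 1520 ± 71.7 and Hspa5 (BiP) at 1456 ± 112 followed and also lay within their spread. The lowest members were Bag3, a co-chaperone of selective autophagy, at 31.0 ± 8.87, the small heat shock protein gene Cryab at 33.3 ± 9.44 and the inducible Hsp70 gene Hspa1a at 46.0 ± 5.99. Their counting error is therefore the largest of the list.

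The ER stress element (ERSE), to which Atf6 and Xbp1 bind together with NF-Y, is shown first because it was matched before 8 of the ER stress genes. The list names genes of the response that these factors drive, so such matches are no independent support for it. The motif searched was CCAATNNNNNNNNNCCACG, on both strands, in the 250 bases before the start of each RefSeq promoter of build GRCm38.p6. RefSeq promoters were matched for 28 of the 34 members, all but Hyou1, Manf, Hspa8, Hsp90aa1, Hsp90ab1 and Cryab. Matches were found for 8 of the 17 ER stress genes with a promoter and for 0 of the 11 heat shock genes, while 0.113% of all 32851 promoters held one (37 promoters). The 9 sites are given on the strand that reads CCAAT first, with both conserved blocks in capitals.
Hspa5 (chr2:34772025-34772043, plus strand): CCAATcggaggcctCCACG
Hsp90b1, site far from start (chr10:86705638-86705656, minus strand): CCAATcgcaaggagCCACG
Hsp90b1, site near start (chr10:86705533-86705551, plus strand): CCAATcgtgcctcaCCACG
Calr (chr8:84847075-84847093, plus strand): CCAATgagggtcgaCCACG
Canx (chr11:50325800-50325818, minus strand): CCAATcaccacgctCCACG
Dnajc3 (chr14:118937827-118937845, plus strand): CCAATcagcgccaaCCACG
Pdia6 (chr12:17266491-17266509, plus strand): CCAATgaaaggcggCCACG
Creld2 (chr15:88819520-88819538, minus strand): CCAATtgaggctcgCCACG
Syvn1 (chr19:6046532-6046550, plus strand): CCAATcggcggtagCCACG
The sites began between 44 bases (Syvn1) and 212 bases (Hsp90b1) before the start. The spacer of 9 bases differed from gene to gene while the outer blocks were fixed by the search.

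The whole stretch before the start of Hspa5 is printed to show how the site lies among others. In it the capitals mark an AP-1 match (TGANTCA, found in 6.75% of all promoters), 182 bases before the start, and the ERSE match at 65 bases.
Hspa5 (chr2:34771840-34772089, plus strand): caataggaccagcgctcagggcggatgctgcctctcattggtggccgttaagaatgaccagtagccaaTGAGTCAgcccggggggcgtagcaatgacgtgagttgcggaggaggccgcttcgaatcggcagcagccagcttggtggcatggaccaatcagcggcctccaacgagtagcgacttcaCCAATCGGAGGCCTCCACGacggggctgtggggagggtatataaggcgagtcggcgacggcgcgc
The AP-1 motif was also matched before Sel1l and Bag3, and the cyclic AMP response element TGACGTCA (1.55% of all promoters) before 0 of the 28 members.

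Heat shock elements were searched as GAANNTTCNNGAA and its other phase TTCNNGAANNTTC, on both strands. This pattern was matched in 0.466% of all promoters and, among the members, before Hspd1 and Hspe1, the genes of the mitochondrial chaperonin Hsp60 and its cochaperonin Hsp10. These genes stand head to head, so 1 site serves as the match of both, with the overlapping matches in capitals.
Hspe1 and Hspd1 (chr1:55088053-55088082, plus strand): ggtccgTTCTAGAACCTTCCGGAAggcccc
The element was not matched before the other 9 heat shock genes with a promoter, which says only that these letters were not in that window. The plot of motif positions shows the 10 members with an ERSE or heat shock element match.

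**Figure D1:**
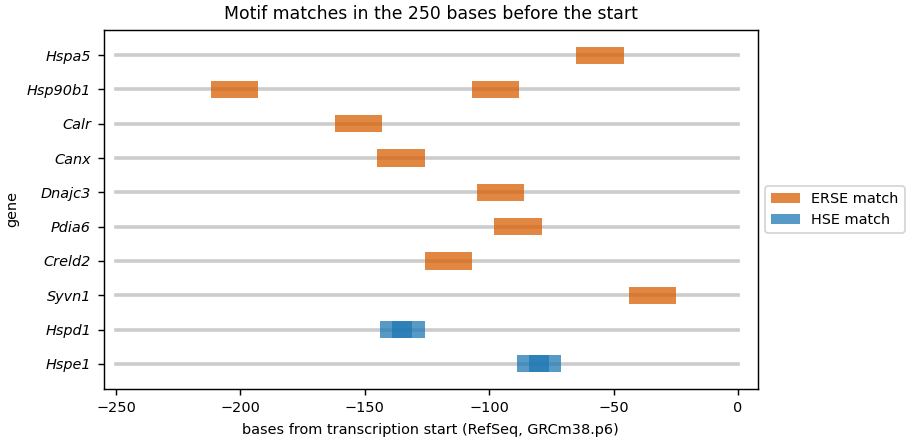
Position of ERSE (orange) and heat shock element (HSE, blue) matches in the 250 bases before the RefSeq transcription start, which is at 0, for the 10 members with a match. ERSE matches start 44 to 212 bases before the start of 8 ER stress genes, and the only HSE matches lie between Hspd1 and Hspe1.

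The first question was how the chaperone genes respond to each stimulus over time. BDNF raised both lists at every time and lowered few members. At 1 h, 10 of 19 ER stress genes and 11 of 15 heat shock genes were called higher, beside 21.3% of all genes tested, and 1 and 0 members were called lower, beside 19% of all genes. At 6 h, 14 ER stress and 9 heat shock genes were higher (22.1% of all genes) and 0 of either list lower (21.1%). At 10 h, 13 and 9 were higher (21.1%) and 0 and 2 lower (19.5%). The median log2 fold change of the ER stress genes was 0.17, 0.31 and 0.40 at 1, 6 and 10 h, and that of the heat shock genes 0.32, 0.21 and 0.23, while that of all genes lay between -0.01 and 0.00. Higher at all 3 times were 10 ER stress genes (Hspa5, Hyou1, Calr, Dnajb11, Pdia3, Pdia6, Xbp1, Manf, Creld2, Syvn1) and 9 heat shock genes (Hspa8, Hsph1, Hspa4, Dnaja1, Dnajb1, Hsp90ab1, Hspd1, Hspe1, Stip1). The share of all genes called higher at all 3 times was not counted, and the shares at single times are no substitute for it.

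KCl raised both lists at 1 h, and these changes mostly did not last. At 1 h, 12 ER stress and 10 heat shock genes were called higher (26.5% of all genes) and 2 and 0 lower (28.2%). At 6 h, 5 and 5 were higher (33.4% of all genes) and 7 and 2 lower (33.1%). These shares were near or below those of all genes, the lower ER stress genes being 36.8% of their list. At 10 h, 5 and 3 were higher (29%) and 3 and 3 lower (28.2%). The medians were 0.24, -0.07 and 0.06 for the ER stress genes and 0.25, 0.02 and -0.01 for the heat shock genes. Higher at all 3 times were Dnajb9, Herpud1 and Syvn1 of the ER stress genes and Hspa8, Dnajb1 and Hsp90ab1 of the heat shock genes. Here too the matching share of all genes was not counted. Dnajc3, a J-domain protein of the ER lumen, was the only member not called against controls in any of the 6 groups (log2 fold changes -0.08 to 0.18).

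**Figure D2:**
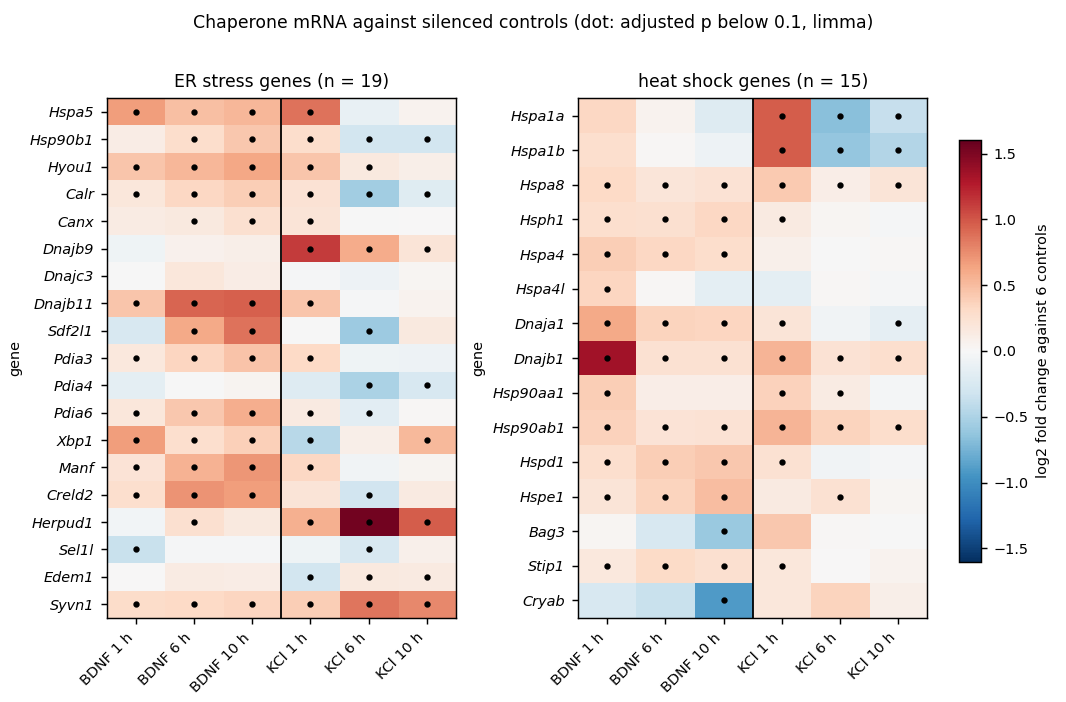
Log2 fold change against the 6 silenced controls (colour, red higher and blue lower) of the 19 ER stress genes (left) and 15 heat shock genes (right) in 6 stimulated groups of 2 samples, with a black dot where the adjusted p was below 0.1 in limma. The BDNF columns are mostly red, while the KCl columns at 6 h and 10 h are mixed, with Herpud1 at 6 h the strongest colour of the plot (1.55).

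**Figure D3:**
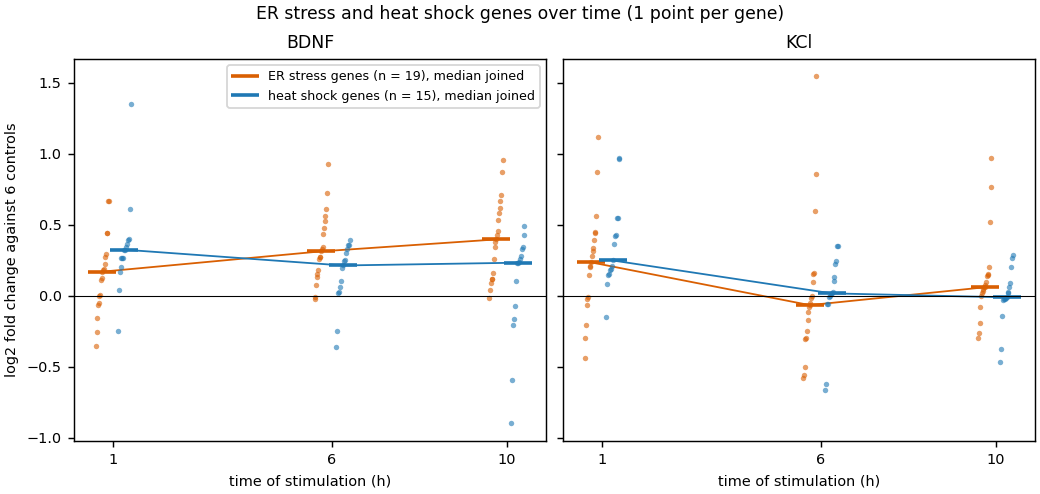
Log2 fold change against controls of each gene (points) and the median of each list (bars joined by lines) by hours of BDNF (left) or KCl (right). With BDNF the ER stress median goes from 0.17 to 0.40, and with KCl both medians are near 0 at 6 h and 10 h.

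Among the chaperones of the ER lumen, Hspa5 encodes BiP, the ER Hsp70 that also holds the UPR sensors in check. Its controls had a lowest, median and highest value of 5797, 6001 and 7044. The BDNF samples had values of 9767 and 9773 (1 h), 8208 and 8912 (6 h) and 8636 and 9132 (10 h). The KCl samples had 10892 and 11592 (1 h), 5428 and 5933 (6 h) and 6978 and 5871 (10 h). All BDNF samples and both KCl 1 h samples were thus above all controls, and the later KCl samples overlapped them or lay just below. The log2 fold changes with BDNF were 0.67 ± 0.07, 0.48 ± 0.07 and 0.53 ± 0.07 (adjusted p = 2.79e-07, 2.84e-05 and 1.07e-05). With KCl it was 0.87 ± 0.07 at 1 h (adjusted p = 2.56e-09), -0.11 ± 0.07 at 6 h (adjusted p = 0.187) and 0.06 ± 0.07 at 10 h (adjusted p = 0.528).

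Calr and Hsp90b1 went opposite ways with the 2 stimuli late in the series. Calr had controls of 6175, 6507 and 7116 (lowest, median, highest). Its BDNF samples were at 7486 and 7415, then 7930 and 8559, then 8699 and 8556 at 1, 6 and 10 h, and its KCl samples at 7704 and 7722, then 4618 and 4302, then 6275 and 5216. All BDNF samples were above the controls, and at KCl 6 h both samples were far below them. Changes on the log2 scale were 0.19, 0.33 and 0.40 (BDNF) and 0.24, -0.56 and -0.20 (KCl) (SE 0.07 each), all called, although the call at KCl 10 h ended without KCl 10 h library B (adjusted p = 0.559) and that at BDNF 1 h without library A (0.197) or library B (0.14).

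Hsp90b1 encodes Grp94, the Hsp90 of the ER, which folds integrins and Toll-like receptors. Its controls were at 3350, 3482 and 3993. Its BDNF samples were at 3934 and 3732, then 4231 and 4342, then 4479 and 5064 at the 3 times, and its KCl samples at 4216 and 4386, then 2721 and 3057, then 3061 and 2720. The late BDNF samples were all above and the late KCl samples all below the controls. Relative to controls, log2 changes were 0.11 (not called), 0.28 and 0.43 (BDNF) and 0.28, -0.30 and -0.30 (KCl) (SE 0.07 each). The exons of Hsp90b1 overlap a gene on the opposite strand, 1810014B01Rik, over 10.3% of their length, and the sources used here do not give whether counting used strand.

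Hyou1, the nucleotide exchange factor of BiP, was higher with BDNF at each time (0.44, 0.53 and 0.62, SE 0.06) and with KCl at 1 h (0.45 ± 0.06) and 6 h (0.15 ± 0.06), the last call ending without KCl 6 h library B (adjusted p = 0.155). Canx was higher at BDNF 6 h and 10 h (0.15 and 0.26, SE 0.06) and KCl 1 h (0.20 ± 0.06), and its BDNF 6 h call ended without library A (adjusted p = 0.143) or library B (0.324).

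J-domain proteins hand unfolded clients to BiP, and the 3 in the list behaved unlike each other. Dnajb11 (ERdj3), which with Sdf2l1 keeps clients from aggregating, had controls of 841, 912 and 971. Its BDNF samples were at 1216 and 1252 (1 h), 1737 and 1728 (6 h) and 1736 and 1793 (10 h), and its KCl samples at 1198 and 1267, then 878 and 923, then 1017 and 880. Its log2 fold changes of 0.44, 0.93 and 0.96 with BDNF (SE 0.07 each) were called, and at 6 h and 10 h they were the largest rises of any member with BDNF. With KCl, 0.44 ± 0.07 at 1 h was called and -0.01 and 0.06 later were not.

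Sdf2l1 was called only at the later times. Its controls were at 148, 162 and 191, its BDNF samples at 135 and 139, then 258 and 245, then 292 and 312, and its KCl samples at 146 and 183, then 108 and 111, then 213 and 157. Both BDNF samples at 6 h and 10 h were above all controls and both KCl samples at 6 h below them. The BDNF samples at 1 h also lay below all controls, though this change was not called. Log2 changes against controls were -0.26 (adjusted p = 0.11), 0.61 and 0.87 (BDNF) and -0.01, -0.58 and 0.15 (KCl) (SE 0.12), of which 0.61, 0.87 and -0.58 were called.

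Dnajb9 (ERdj4), which restrains the sensor Ire1 through BiP, was the reverse case and responded to KCl. Its controls were at 555, 594 and 645. KCl samples were at 1415 and 1182 (1 h), 793 and 1027 (6 h) and 654 and 720 (10 h), all above the controls, while BDNF samples were at 616 and 527, then 583 and 676, then 647 and 621. Log2 fold changes with KCl were 1.12 ± 0.10 (adjusted p = 3.14e-09), 0.60 ± 0.10 (adjusted p = 1.48e-05) and 0.20 ± 0.10 (adjusted p = 0.0839), and with BDNF -0.06, 0.07 and 0.09, none called. The call at 10 h ended without KCl 10 h library B (adjusted p = 0.443) and without 4 of the 6 controls (control 1 h A or B and control 10 h A or B, 0.101 to 0.136).

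Disulphide isomerases form and shuffle disulphide bonds. Pdia6 had controls of 1825, 2008 and 2170, BDNF samples of 2181 and 2339, then 2629 and 2773, then 2819 and 3177, and KCl samples of 2186 and 2222, then 1722 and 1813, then 2123 and 1921. These are log2 changes of 0.18, 0.44 and 0.59 (BDNF) and 0.14, -0.17 and 0.02 (KCl) (SE 0.07), all called but the last. The late BDNF samples were clear of the controls, whereas the KCl differences were at the edge of the control range and their calls were lost without KCl 1 h library A or B (adjusted p = 0.199 and 0.275) or, at 6 h, without library A (0.188). The KCl 1 h call was also lost without control 1 h A, 6 h A, 10 h A or 10 h B (0.1 to 0.164), and the BDNF 1 h call without library B (0.354).

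Pdia3, the partner of Calr and Canx, was called higher at each BDNF time (0.17, 0.34 and 0.46, SE 0.07) and at KCl 1 h (0.31 ± 0.07). Its BDNF 1 h call ended without BDNF 1 h library A (adjusted p = 0.201), library B (0.243) or control 6 h A (0.103). Pdia4 was called only with KCl and only lower, by -0.50 ± 0.11 at 6 h and -0.26 ± 0.11 at 10 h. The later call ended without KCl 10 h library A (0.111), library B (0.339) or control 1 h B (0.103).

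Xbp1 encodes the UPR transcription factor whose mRNA is spliced by Ire1, which gene counts do not show. Its controls were at 987, 1048 and 1099. BDNF samples were at 1735 and 1581, then 1281 and 1240, then 1437 and 1286, and KCl samples at 841 and 705, then 1068 and 1168, then 1615 and 1384. At 1 h the stimuli thus moved Xbp1 in opposite directions, with no overlap with the controls on either side. On the log2 scale the changes were 0.66, 0.27 and 0.38 with BDNF (adjusted p = 4.9e-07, 0.0081 and 0.000641) and -0.44, 0.10 and 0.52 with KCl (adjusted p = 5.5e-05, 0.283 and 8.65e-06), SE 0.08 each. With KCl it was higher at 6 h than at 1 h (0.54 ± 0.09) and higher at 10 h than at 6 h (0.42 ± 0.09), the latter ending as a call when KCl 10 h library A was left out (adjusted p = 0.117).

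Manf and Creld2 encode ER stress-induced proteins that are retained in the ER or secreted. Manf was called higher with BDNF at each time (0.22, 0.56 and 0.71, SE 0.07) and at KCl 1 h (0.33 ± 0.07), and its BDNF 1 h call ended without library A (adjusted p = 0.315). Creld2 had controls of 192, 230 and 263, BDNF samples of 292 and 266, then 386 and 377, then 345 and 390, and KCl samples of 267 and 267, then 182 and 191, then 306 and 211. All BDNF samples were above the controls and both KCl 6 h samples just below. Relative to controls, log2 changes were 0.27, 0.72 and 0.67 with BDNF, all called, and 0.21, -0.31 and 0.14 with KCl (SE 0.12), of which -0.31 was called. That call ended without KCl 6 h library A (adjusted p = 0.161). The BDNF 1 h call was not made by edgeR or DESeq2 and ended without either BDNF 1 h library (0.455 and 0.158) or without control 1 h B, 6 h A or 10 h A (0.136 to 0.167).

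Herpud1, a membrane protein that assembles the retrotranslocation complex, had controls of 351, 378 and 399. Its KCl samples were at 575 and 539 (1 h), 986 and 1227 (6 h) and 705 and 770 (10 h), all above the controls and peaking at 6 h, and its BDNF samples at 365 and 362, then 451 and 448, then 454 and 388. Log2 fold changes with KCl were 0.57, 1.55 and 0.97 (SE 0.08, adjusted p = 8.6e-06, 1.91e-12 and 5.74e-09), the largest rise of any member in the series being that at 6 h, a 2.92-fold change. With BDNF only 0.26 ± 0.08 at 6 h was called, and this ended without BDNF 6 h library A (adjusted p = 0.127) or B (0.115).

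Syvn1 encodes Hrd1, the ubiquitin ligase of the same complex. Its controls were at 714, 739 and 783, its KCl samples at 975 and 974, then 1378 and 1315, then 1287 and 1245, and its BDNF samples at 920 and 905, then 948 and 901, then 978 and 910. All 12 stimulated samples were above all controls. Log2 changes against controls were 0.39, 0.86 and 0.77 with KCl and 0.29, 0.31 and 0.34 with BDNF (SE 0.06), all called. Sel1l, the adaptor of Hrd1, went the other way and was called lower at BDNF 1 h (-0.35 ± 0.06) and KCl 6 h (-0.25 ± 0.06).

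Edem1, which passes glycoproteins on to ERAD, had controls of 530, 536 and 565. Its KCl samples were at 446 and 439, then 589 and 629, then 665 and 547, and its BDNF samples at 543 and 550, then 604 and 588, then 572 and 608. KCl samples were below the controls at 1 h and above them at 6 h, with log2 fold changes of -0.30 ± 0.07 (adjusted p = 0.00196) and 0.16 ± 0.07 (adjusted p = 0.0596), and 0.15 ± 0.07 at 10 h (adjusted p = 0.0943). BDNF changes of 0.01 to 0.13 were not called. Without KCl 6 h library B the 6 h call ended (adjusted p = 0.318), and the 10 h call ended without KCl 10 h library A (0.949) or without control 1 h A, 1 h B, 10 h A or 10 h B (0.121 to 0.136).

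Among the heat shock genes, Hspa1a and Hspa1b encode the stress-inducible cytosolic Hsp70. Hspa1a had controls of 114, 136 and 168, KCl samples of 253 and 280 (1 h), 120 and 60.2 (6 h) and 111 and 98.0 (10 h), and BDNF samples of 161 and 179, then 136 and 146, then 112 and 123. Hspa1b had controls of 191, 235 and 287, KCl samples of 419 and 483, then 194 and 115, then 193 and 143, and BDNF samples of 286 and 267, then 232 and 235, then 215 and 222. In both, the KCl 1 h samples were above all controls, the BDNF samples at 6 h and 10 h overlapped the controls or touched the edge of their range, and the KCl 6 h samples disagreed, 1 within and 1 below the control range.

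With KCl, the log2 fold changes of Hspa1a were 0.97, -0.67 and -0.37 (SE 0.18) and those of Hspa1b 0.96, -0.62 and -0.47 (SE 0.16), all called. Both 6 h calls ended without KCl 6 h library B (adjusted p = 0.391 and 0.222), and both 10 h calls without KCl 10 h library B (0.378 and 0.364). The 10 h call of Hspa1a also ended without KCl 10 h library A (0.132) or without control 1 h A, 1 h B, 6 h A or 10 h B (0.104 to 0.148). With BDNF 0.33 to -0.20 and 0.26 to -0.08 were not called. The transcripts share 1524 words of 75 bases, the read length of the study, out of 2893 and 2729, so reads can be assigned to either gene, and the 2 genes are not independent measurements. Hspa1a also overlaps Gm20481 on the opposite strand over 19% of its exons.

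Hspa8 and Hsp90ab1, the constitutive Hsp70 and Hsp90 genes, rose at each time with both stimuli, and Hsp90aa1 was called in fewer groups. Hspa8 was called higher in all 6 groups (0.32, 0.20 and 0.23 with BDNF, 0.42, 0.10 and 0.20 with KCl, SE 0.05), the smallest of these (KCl 6 h) being lost without KCl 6 h library A (adjusted p = 0.237) or B (0.115) or without control 6 h A, 10 h A or 10 h B (0.111 to 0.119). Hsp90ab1 was also higher in all 6 (0.37, 0.21 and 0.23 with BDNF, 0.55, 0.35 and 0.29 with KCl, SE 0.05). Hsp90aa1 was higher at 1 h with BDNF (0.40 ± 0.05) and KCl (0.36 ± 0.05) and at KCl 6 h (0.13 ± 0.05). Of the words of 75 bases in Hspa8 and Hsp90aa1, 32.8% and 42.8% also occur in transcripts of other genes, and of those in Hspd1, 29.6%, so reads of these genes may be assigned to others.

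J-domain proteins of the cytosol activate Hsp70. Dnajb1, itself a heat shock gene, had controls of 554, 590 and 639. BDNF samples were at 1490 and 1529 (1 h), 689 and 715 (6 h) and 708 and 689 (10 h), and KCl samples at 1024 and 731, then 730 and 656, then 682 and 742. All 12 stimulated samples were above all controls, and those of BDNF at 1 h were far above the rest. These are log2 changes of 1.35, 0.25 and 0.24 with BDNF (adjusted p = 8.88e-11, 0.038 and 0.0478) and 0.55, 0.23 and 0.26 with KCl (adjusted p = 3.24e-05, 0.0364 and 0.0188), SE 0.09. The later calls each ended without a library: BDNF 6 h A or B (adjusted p = 0.126 and 0.227), BDNF 10 h A or B (0.221 and 0.169), KCl 6 h A (0.281) and KCl 10 h B (0.198).

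Dnaja1, a farnesylated partner of Hspa8, had controls of 2908, 3096 and 3196, BDNF samples of 4763 and 4601, then 3953 and 3890, then 3719 and 4053, and KCl samples of 3703 and 3382, then 2819 and 3068, then 2826 and 2715. The BDNF samples were all above the controls, and both KCl 10 h samples just below. On the log2 scale the changes were 0.61, 0.36 and 0.34 (BDNF) and 0.21, -0.06 and -0.14 (KCl) (SE 0.06), all called but -0.06. The KCl 1 h call ended without library A (adjusted p = 0.147) and the KCl 10 h call without library B (0.262). Of its words of 75 bases, 10.4% also occur in other transcripts. Its exons overlap Smu1 on the opposite strand over 7.05% of their length.

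**Figure D4:**
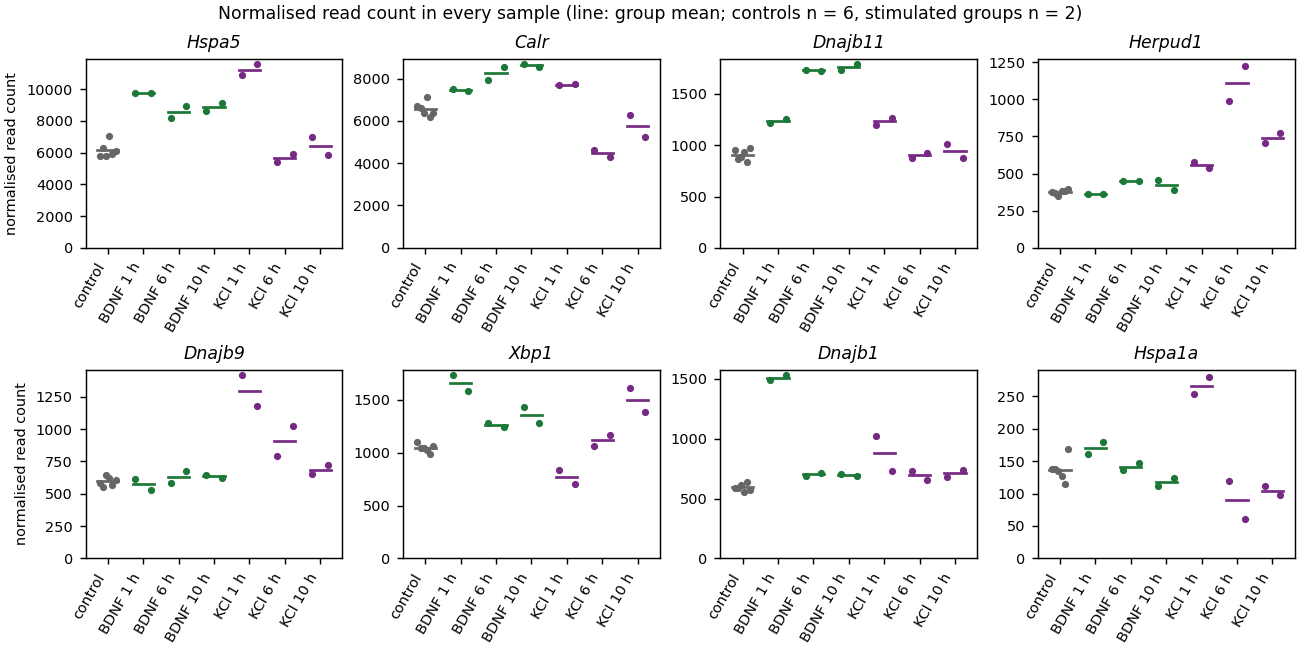
Normalised read count (vertical axis from 0) in each sample (points) with the group mean (line) for 8 members, in controls (grey, n = 6), BDNF (green, n = 2 per time) and KCl (purple, n = 2 per time). Dnajb1 stands out at BDNF 1 h, Herpud1 at KCl 6 h and Dnajb9 at KCl 1 h, while Xbp1 at 1 h is above the controls with BDNF and below them with KCl.

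Hsp110 proteins are nucleotide exchange factors of Hsp70. Hspa4 was called higher with BDNF at each time (0.39, 0.33 and 0.28, SE 0.06) and not with KCl (0.08, -0.01 and 0.02). Hsph1 was called higher with BDNF at each time (0.27, 0.25 and 0.33, SE 0.06) and at KCl 1 h (0.15 ± 0.06), the latter lost without KCl 1 h library A (adjusted p = 0.39). Hspa4l was called at BDNF 1 h alone (0.34 ± 0.15, adjusted p = 0.0854), a call that ended without BDNF 1 h library A (0.326), library B (0.217), control 6 h A (0.131) or control 10 h B (0.128).

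The mitochondrial chaperonin genes rose together with BDNF, Hspd1 by 0.26, 0.39 and 0.43 (SE 0.06) and Hspe1 by 0.20, 0.36 and 0.49 (SE 0.09). Their exons overlap on opposite strands over 112 bases, 4.24% of the exons of Hspd1 and 7.6% of those of Hspe1. Hspe1 at BDNF 1 h was not called by edgeR or DESeq2, nor without either BDNF 1 h library (adjusted p = 0.35 and 0.188) or without control 1 h B, 6 h A or 6 h B (0.113 to 0.131). With KCl, Hspd1 was called at 1 h (0.25 ± 0.06) and Hspe1 at 6 h (0.24 ± 0.09, a call ended by leaving out KCl 6 h library B, adjusted p = 0.568). Stip1, the scaffold that joins Hsp70 to Hsp90, was called at each BDNF time (0.17, 0.30 and 0.26, SE 0.06) and KCl 1 h (0.19 ± 0.06), with the BDNF 1 h call lost without library A (0.132) or B (0.142).

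Bag3 and Cryab were the only members called lower with BDNF at 10 h, and both are weakly expressed. Bag3 had controls of 56.8, 75.5 and 120, and BDNF 10 h samples of 53.1 and 48.4 (log2 fold change -0.59 ± 0.22, adjusted p = 0.0454). Cryab had controls of 31.2, 50.0 and 65.3, and BDNF 10 h samples of 19.2 and 32.5 (-0.90 ± 0.27, adjusted p = 0.0144). The Bag3 samples were just below all controls and those of Cryab overlapped them. Both calls ended without BDNF 10 h library A (adjusted p = 0.133 and 0.289), and that of Bag3 also without library B (0.256). Cryab shares 17% of its exons with Hspb2 on the opposite strand.

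The second question was where the stimuli differ from each other. At 1 h, 2 ER stress genes (Xbp1 and Edem1) and 4 heat shock genes were higher with BDNF (24.6% of all genes), and 4 and 3 were lower (18.2%). At 6 h, 13 ER stress and 7 heat shock genes were higher with BDNF (29.6%) and 3 and 2 lower (27.8%). At 10 h, 12 and 7 were higher (23.1%) and 2 and 2 lower (21.8%). The median difference of the ER stress genes was -0.08, 0.41 and 0.47, and that of the heat shock genes 0.01, 0.11 and 0.17. Here n is 2 samples against 2, with the spread taken from all 18 samples.

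The largest differences at 6 h in favour of BDNF were those of Sdf2l1 (1.19 ± 0.15, adjusted p = 9.58e-07), Creld2 (1.03 ± 0.15, adjusted p = 7.37e-06), Dnajb11 (0.94 ± 0.08, adjusted p = 7.27e-09) and Calr (0.89 ± 0.08, adjusted p = 1.09e-08). Lower with BDNF than with KCl at 6 h were 3 ER stress genes, Herpud1 (-1.29 ± 0.10), Syvn1 (-0.54 ± 0.07) and Dnajb9 (-0.52 ± 0.12). Among the genes called at 1 h were Dnajb9 (-1.18 ± 0.12) and Xbp1 (1.10 ± 0.09) of the ER stress genes, and Dnajb1 (0.80 ± 0.11), Hspa4l (0.50 ± 0.18), Hspa1b (-0.70 ± 0.20) and Hspa1a (-0.64 ± 0.22) of the heat shock genes. The Hspa1a call ended without BDNF 1 h library A (adjusted p = 0.141) or KCl 1 h library B (0.134), and the Hspa4l call without BDNF 1 h library A (0.154) or B (0.107) or KCl 1 h library A (0.253). The count of heat shock genes at 1 h fell from 7 to 4 without BDNF 1 h library A. Of the 16 ER stress genes called at 6 h, 14 were called without each library in turn, and of the 9 heat shock genes, 4. Without KCl 6 h library B the calls of Sel1l (adjusted p = 0.129), Hspa1a (0.33), Hspa1b (0.267), Hsph1 (0.286) and Cryab (0.373) at 6 h ended, and without library A those of Canx (0.745) and Hsp90ab1 (0.388). The calls of Canx and Hsp90ab1 also ended without either BDNF 6 h library (0.132 to 0.31), and that of Cryab without BDNF 6 h library A (0.441).

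The third question was how the response changed over time within a stimulus. With BDNF, 7 ER stress genes were higher at 6 h than at 1 h (15.8% of all genes) and 1, Xbp1, lower, while 0 heat shock genes were higher and 4 lower (17.7% of all genes), namely Dnajb1 (-1.10 ± 0.11), Hsp90aa1 (-0.30 ± 0.06), Dnaja1 (-0.26 ± 0.07) and Hsp90ab1 (-0.15 ± 0.06), the last not called without any 1 of the 4 libraries compared (adjusted p = 0.167 to 0.28). The ER stress genes with the largest gain were Sdf2l1 (0.87 ± 0.15) and Dnajb11 (0.49 ± 0.08). The count of 8 ER stress genes fell to 4 without BDNF 6 h library B and to 5 without BDNF 1 h library B. Between BDNF 6 h and 10 h, 0 members were called by limma, edgeR or DESeq2 (0 members with any of them at an unadjusted p below 0.05), and 0.074% of all genes were higher and 0.142% lower.

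With KCl, 14 of 19 ER stress genes were lower at 6 h than at 1 h (28.7% of all genes) and 4 higher (30.9%), and 9 of 15 heat shock genes were lower and 0 higher. The falls were led by Hspa1a (-1.64 ± 0.22), Hspa1b (-1.59 ± 0.20), Hspa5 (-0.99 ± 0.09) and Calr (-0.79 ± 0.08), and the rises were those of Herpud1 (0.98 ± 0.10), Xbp1 (0.54 ± 0.09), Syvn1 (0.47 ± 0.07) and Edem1 (0.46 ± 0.09). Without KCl 6 h library A the calls of Canx (adjusted p = 0.371) and Pdia4 (0.395) ended, and without KCl 6 h library B those of Sel1l (0.277), Dnajb1 (0.129), Hsp90ab1 (0.128) and Stip1 (0.197). Canx, Pdia4 and Sel1l were also not called without KCl 1 h library B (0.127, 0.633 and 0.274), nor Dnajb1 without KCl 1 h library A (0.539). Between 6 h and 10 h of KCl, 5 ER stress genes rose (12.9% of all genes), among them Sdf2l1 (0.73 ± 0.15) and Calr (0.36 ± 0.08), 2 fell (9.66%), Herpud1 (-0.58 ± 0.10) and Dnajb9 (-0.40 ± 0.12), and of the heat shock genes 1 fell, Hsp90aa1. Without KCl 10 h library A the calls of Calr (adjusted p = 0.152), Dnajb9 (0.221), Xbp1 (0.117), Creld2 (0.579) and Hsp90aa1 (0.355) ended, and without KCl 6 h library B those of Dnajb9 (0.346), Creld2 (0.115) and Hsp90aa1 (0.181). Creld2 was also not called without KCl 6 h library A (0.109). The count of ER stress genes fell from 7 to 3 without KCl 10 h library A. The 1 heat shock gene became 4 when KCl 6 h library A was left out, and 0 when KCl 6 h library B or KCl 10 h library A was.

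Leaving out single libraries also changed counts against controls. At BDNF 1 h the 11 ER stress genes called fell to 7 without library A or library B. At KCl 6 h the 7 heat shock genes fell to 4 without library B. At KCl 10 h the 8 ER stress genes fell to 5 without control 1 h B, and the 6 heat shock genes to 2 without KCl 10 h library B. The ER stress calls at BDNF 10 h (13 of 13) and most of those at BDNF 6 h (12 of 14) and KCl 1 h (13 of 14) were made without each library in turn. Some calls close to the threshold were also not made by another tool: at BDNF 1 h edgeR did not call Pdia3 and Hspa4l (adjusted p = 0.106 and 0.133), at KCl 6 h it did not call Hspa8 (0.123), and DESeq2 did not call Pdia6 at KCl 1 h (0.1) or Dnajb9 and Edem1 at KCl 10 h (0.118 and 0.146). Without the filter on low values, Hspa1a at KCl 10 h was not called (0.118).

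The 8 ER stress genes with an ERSE match and the 9 with a promoter and no match were set side by side. With BDNF at 1, 6 and 10 h, 5, 7 and 7 of the 8 were called higher, with median log2 fold changes of 0.18, 0.32 and 0.41. Of the 9, 3, 5 and 4 were higher, with medians of -0.05, 0.26 and 0.16. Over all genes 21.3%, 22.1% and 21.1% were higher. Called lower with BDNF was 1 of the 9, at 1 h (19% of all genes). With KCl at 1 h, 6 of the 8 were higher and 0 lower (median 0.22), and of the 9 there were 4 higher and 2 lower (median -0.01). With KCl at 6 h, 1 of the 8 was higher and 4 lower (median -0.14), and of the 9 there were 3 higher and 3 lower (median -0.01). At KCl 10 h these were 1 and 2 of the 8 (median 0.02) and 4 and 1 of the 9 (median 0.15). Over all genes 26.5%, 33.4% and 29% were higher and 28.2%, 33.1% and 28.2% lower with KCl. Herpud1 and Dnajb9, the largest KCl responders, were without this match, and Dnajc3, with one, was not called. No other pattern bound by Atf6 or Xbp1 was searched. A missing match thus does not show that a gene lacks an ER stress element. These counts cover few genes and were not tested.

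Other genes of both systems were counted for context, from lists of known members. Over all genes, 21.1% to 22.1% were called higher and 19% to 21.1% lower with BDNF, and 26.5% to 33.4% higher and 28.2% to 33.1% lower with KCl, and the counts that follow are to be read beside these shares. Of 16 UPR sensors and regulators, 8, 11 and 10 were called higher with BDNF at 1, 6 and 10 h and 1, 0 and 0 lower, and with KCl 5, 8 and 9 were higher and 5, 1 and 1 lower. Against controls the largest rises were those of Ppp1r15a, which resets translation after stress (2.94 ± 0.09 at KCl 1 h), and Ddit3, which encodes the stress factor Chop (1.81 ± 0.11 at BDNF 1 h), and the largest falls those of Chac1, which degrades glutathione (-1.90 ± 0.17 at KCl 1 h), and the pseudokinase gene Trib3 (-1.08 ± 0.33 at KCl 1 h). Of 47 other genes of ER folding, translocation and degradation, 16, 29 and 30 were higher with BDNF (4, 0 and 0 lower) and 23, 24 and 22 with KCl (9, 8 and 8 lower). Here the largest rises were those of Derl3 (1.49 ± 0.33 at KCl 1 h), of the ERAD channel family, and Dad1 (1.18 ± 0.08 at KCl 6 h), of the oligosaccharyltransferase, and the largest falls those of Edem2 (-0.92 ± 0.10 at KCl 6 h) and the ER oxidase gene Ero1l (-0.89 ± 0.09 at KCl 1 h).

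Beside the same shares over all genes, of 38 other heat shock and cytosolic chaperone genes 19, 21 and 23 were higher with BDNF (2, 4 and 3 lower) and 22, 18 and 15 with KCl (6, 9 and 7 lower). The small heat shock protein gene Hspb8 had the largest rise (1.52 ± 0.25 at KCl 6 h), and the atypical Hsp70 gene Hspa12a one of the largest falls (-1.03 ± 0.09 at KCl 6 h). Dnajb5, a relative of Dnajb1, had both the second largest rise (1.08 ± 0.09 at BDNF 1 h) and the largest fall (-1.13 ± 0.09 at KCl 1 h).

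The last question was whether accessibility at the promoters of these genes changed. Of the 34 members, 32 had an ATAC peak from 1000 bases before to 100 after a transcription start, with 32 peaks in all, 20 of ER stress and 12 of heat shock genes (Hspd1 and Hspe1 share a peak). All 32 passed the filter. In edgeR with LOESS offsets, 1, 0 and 0 of the 32 peaks were called at 1, 6 and 10 h of BDNF, beside 16.4%, 9.4% and 8.27% of all 56383 peaks tested, and 1, 0 and 2 with KCl, beside 7.97%, 6.74% and 7.08%. Of the 13729 promoter peaks of protein-coding genes, a closer background, 6.64%, 2.15% and 3.09% were called with BDNF and 8.96%, 5.14% and 4.54% with KCl. Where 0 were called, 5, 4 and 1 peaks (BDNF 6 h, BDNF 10 h and KCl 6 h) had an unadjusted p below 0.05, and DESeq2 called 1, 0 and 0. Median log2 fold changes of the 32 peaks lay between -0.11 and 0.03 with these offsets and between -0.28 and -0.08 with TMM scaling.

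The peak shared by Hspd1 and Hspe1 (chr1:55087517-55088580) was closing at KCl 10 h. Its controls had 353 to 401 reads scaled by LOESS and its KCl 10 h samples 280 and 278, below all controls (log2 fold change -0.44 ± 0.10, adjusted p = 0.00374 in edgeR). Neither gene was called at that time in RNA. The peaks of Manf at BDNF 1 h (0.24 ± 0.10), Edem1 at KCl 1 h (-0.37 ± 0.11) and Pdia6 at KCl 10 h (0.36 ± 0.12) were called, each call ending without either library of its own stimulated group (adjusted p = 0.565 and 0.161, 0.37 and 0.112, and 0.167 and 0.48). The Manf call also ended without any 1 of 3 controls, 1 of 1 h or either of 6 h (0.114 to 0.143), and the Pdia6 call without 1 control of 10 h (0.102). With TMM scaling neither the Manf nor the Pdia6 peak was called (0.421 and 0.477), while 16 of the 32 peaks were called closing at KCl 10 h. The promoter peaks of the largest RNA responders were not called at the time of their peak RNA level: Dnajb1 at BDNF 1 h had a log2 fold change of -0.05 ± 0.09, Herpud1 at KCl 6 h -0.13 ± 0.14 and Dnajb9 at KCl 1 h -0.18 ± 0.08 (edgeR adjusted p = 0.811, 0.717 and 0.21).

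**Figure D5:**
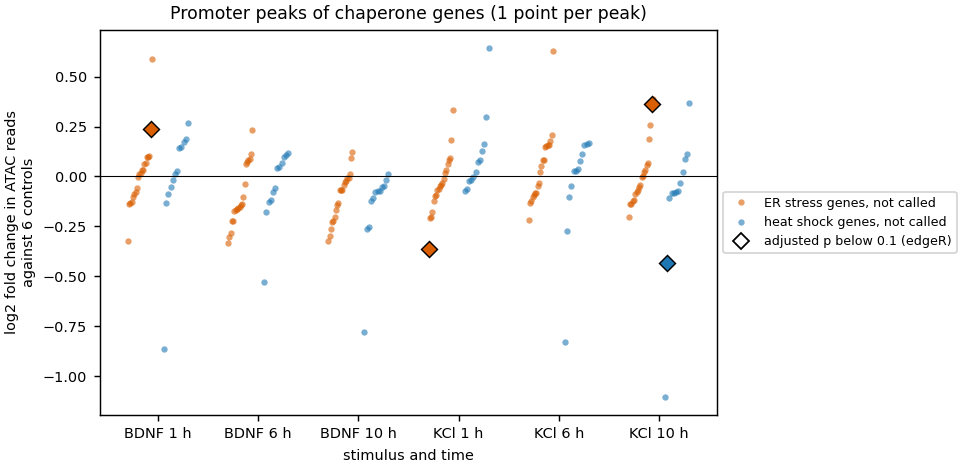
Log2 fold change in ATAC reads against the 6 controls of each promoter peak of the ER stress genes (orange, 20 peaks) and heat shock genes (blue, 12 peaks) in the 6 stimulated groups, with diamonds at an adjusted p below 0.1 in edgeR. There are 4 diamonds, and most points lie near 0. The widest points are those of Hspa1a and Hspa1b, whose peaks hold few reads, and of the second Xbp1 peak.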

How the data were processed

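Per the labels and the study's methods, the authors trimmed reads, mapped RNA reads to mm10 with TopHat2 and GENCODE transcripts and divided read counts per gene by a DESeq2 size factor per sample. The deposited RNA values are this signal. Whole reads were recovered from its steps (100.0% of values whole within 0.01), and edgeR on them called 6430 genes at BDNF 1 h and 10779 at KCl 6 h, beside 6546 and 10779 by limma. ATAC reads were aligned with Bowtie2, peaks called with MACS2 and counted with DiffBind; the deposited ATAC values are described as normalised counts but are whole numbers with unequal totals, and were treated as raw counts of reads per peak. All 36 sample columns were used. The authors' deposited tables of fold changes, p-values and scores were used for gene names alone.

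The members and lists were chosen with earlier results of these data known. RNA was tested with limma 3.58.1 (trend, robust) on log2(value + 1), 7 levels (6 stimulated groups and the controls as 1), genes with a mean of at least 10. This scale understates changes of low genes. ATAC was tested with edgeR 4.0.16 (quasi-likelihood, LOESS offsets). Tests were two-sided. The scripts were tested on simulated data. Nothing in the labels says that samples shared a culture or that A and B match between groups, so p-values measure the spread between these samples. All 34 members are named; those called at 2-fold or more or in opposite directions (13 genes) have the lowest, median and highest control and every stimulated sample given. Hspa5, Dnajb11 and Syvn1 were added likewise after their values were seen, and Bag3 and Cryab for BDNF 10 h alone. Genes of other lists are the 2 largest rises and falls. Alternatives were edgeR, DESeq2 1.42.0, TMM scaling, pseudocounts of 5 and 0.5, no filter, an adjusted p below 0.01, controls of the same time, leaving out each library, promoter windows of 500 bases either side, and a block by column letter. At 8.51 to 36.7 M RNA reads, counting error matters for the lowest members. Coordinates are GRCm38 (mm10), 1-based.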

Additional observations from a re-analysis of the deposited data

Results flagged for a closer look

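The following results stood out. In 34 members, 0 had a control sample apart from the other 5 by Dixon's test at the 95% level (6 controls each). Members whose change against controls was called in opposite directions at successive times of a stimulus, with a called difference between those times in limma, were 6, all between 1 h and 6 h of KCl. The share of all genes meeting this rule was not counted. Of all genes, 54.7% and 66.5% were called against controls at KCl 1 h and 6 h, and 59.6% between these times. The log2 difference of 6 h against 1 h was -0.58 for Hsp90b1, -0.79 for Calr, -0.32 for Pdia6, 0.46 for Edem1, -1.64 for Hspa1a and -1.59 for Hspa1b. Each of these 6 differences was called in every fit without 1 library. For Pdia6, Edem1, Hspa1a and Hspa1b, the call against controls at 6 h ended without KCl 6 h library A or B, as given above, and Hspa1a and Hspa1b share reads.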

How the results depend on the processing

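No called change of a member's RNA or of a promoter peak turned its direction under an alternative, but the direction of the ATAC counts turned with the scaling, as given at the end. For single members, 288 alternative values lost a call, 50 gained one, 13 moved and 6017 did not change their call. An adjusted p below 0.01 changed the counts of members called most: ER stress genes to 6 at BDNF 1 h, 4 at KCl 10 h and 5 for BDNF 6 h against 1 h, and heat shock genes to 3 at KCl 6 h, 2 at KCl 10 h, 4, 5 and 5 for BDNF against KCl at 1, 6 and 10 h, 2 for BDNF 6 h against 1 h and 0 for KCl 10 h against 6 h. Against controls of the same time the ER stress genes called were 7 at BDNF 1 h and 4 at KCl 10 h, and the heat shock genes 3 at KCl 10 h. A stricter threshold cannot give more calls, by construction. Controls of the same time change both the number of controls and the reference, and which of these changed the counts was not tested.

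Without 1 library at a time, ER stress genes called ranged over 7 to 13, 12 to 15 and 13 to 14 with BDNF at 1, 6 and 10 h, and 13 to 14, 10 to 12 and 5 to 8 with KCl. Heat shock genes ranged over 8 to 11, 8 to 9 and 8 to 12 with BDNF and 9 to 11, 4 to 7 and 2 to 6 with KCl. For BDNF against KCl at 1, 6 and 10 h the ranges were 5 to 6, 15 to 16 and 13 for ER stress genes and 4 to 6, 6 to 8 and 6 to 7 for heat shock genes. For BDNF 6 h against 1 h they were 4 to 6 and 3, for BDNF 10 h against 6 h 0 and 0, for KCl 6 h against 1 h 15 to 18 and 6 to 11, and for KCl 10 h against 6 h 3 to 9 and 0 to 4.

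Whether column letters A and B pair the RNA samples could not be settled. The correlation of deviations ran from -0.31 to 0.42 over 36 pairs of groups, with 13 of them over 0.1 and a median of 0.06. With the letter as a replicate block, 5 of 26 counts of members changed, each by 1, for example from 11 to 12 ER stress genes at BDNF 1 h and from 14 to 15 at KCl 1 h. No paired analysis was possible for ATAC because its columns carry no replicate number.

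The ATAC counts rested on the scaling. With TMM in place of LOESS offsets, 2, 2 and 4 promoter peaks of members were called at 1, 6 and 10 h of BDNF and 9, 5 and 16 with KCl, all closing, where LOESS had given 1 gained peak at BDNF 1 h and 1 gained and 1 closing at KCl 10 h. The median of the member peaks moved from 0.01 to -0.08 at BDNF 1 h and from 0.03 to -0.17 at KCl 6 h, and the median log2 fold change of all peaks lay between -0.05 and 0.04, against -0.04 and 0.01 with LOESS; the cause was not tested. DESeq2 and the fit with no filter each called 1 peak at BDNF 6 h. Without 1 library at a time, 0 to 2, 0 to 1 and 0 to 2 promoter peaks were called with BDNF and 0 to 1, 0 to 1 and 1 to 2 with KCl. The 0 at BDNF 6 h became 1 without any 1 of 4 controls, that at BDNF 10 h 1 or 2 without any 1 of 3 controls or either stimulated library, and that at KCl 6 h 1 without 1 control of 10 h.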
